A study of Mus musculus with 34 samples.

Results

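Expression of 10 genes for glycoproteins and proteoglycans of the extracellular matrix was examined in limb buds of WT mouse embryos and of embryos with a conditional knockout (CKO) of *Hnrnpk*. The genes were chosen by name and were *Fn1*, *Fbn1*, *Fbn2*, *Fbln1*, *Tnc*, *Postn*, *Vcan*, *Dcn*, *Lum* and *Bgn*. All 10 were found among the 22040 protein-coding genes of the mRNA-seq table, and all 10 had enough expression to be tested, among 12305 genes tested in total. RNA came from E11.5 limb bud cells of 3 WT and 3 CKO replicates, 6 of the 34 samples of the series. The labels give the genotypes as Hnrnpk WT and Hnrnpk CKO. CKO embryos were *Prrx1-Cre;Hnrnpk* fl/fl, in which the Prrx1-Cre recombinase deletes floxed exons of *Hnrnpk* in limb bud mesenchyme and calvarium. The recombinase is not active in the apical ectodermal ridge (AER) and its expression in the hindlimb is incomplete, so a CKO limb bud still holds cells with intact alleles. Whether the WT embryos carried floxed alleles or the transgene, whether a replicate was 1 embryo or a pool, and whether forelimbs and hindlimbs were mixed was not given for RNA-seq. The *p* values therefore measure the spread between these libraries.

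The extracellular matrix is the secreted scaffold between cells. Fibronectin (*Fn1*) is assembled into fibrils on integrins, and fibrillins (*Fbn1*, *Fbn2*) build microfibrils that carry elastin and hold latent TGF-β and BMP, with fibulin-1 (*Fbln1*) bound along such fibers. Tenascin-C (*Tnc*) and periostin (*Postn*) are matricellular proteins, which tune adhesion and are abundant in developing tendon, perichondrium and other connective tissue. Versican (*Vcan*) is a large chondroitin sulfate proteoglycan that binds hyaluronan and fills the mesenchyme before cartilage condensation. Decorin (*Dcn*), lumican (*Lum*) and biglycan (*Bgn*) are small leucine-rich proteoglycans that bind collagen fibrils.

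Hnrnpk is known to bind C-rich stretches of nucleic acid, including the repeated CT element of promoters. Promoter sequences of RefSeq on GRCm38.p6 were therefore read for the members, and 6 of the 10 had an entry (*Fbn1*, *Tnc*, *Vcan*, *Bgn*, *Postn* and *Fbln1*). The 250 bases before the start site are shown for *Bgn* (chrX:73483351-73483600, plus strand), the member that was higher in every CKO library, and for *Tnc* (chr4:64047016-64047265, minus strand), the member whose direction differed most between replicates. Capitals mark matches on either strand to a unit of the CT element (CCCTCCCC, or GGGGAGGG on the other strand), the TATA box (TATAAA, or TTTATA) and the GC box (GGGCGG, or CCGCCC). Matches can share bases, as the last pair of GC boxes of *Bgn* does.
Bgn: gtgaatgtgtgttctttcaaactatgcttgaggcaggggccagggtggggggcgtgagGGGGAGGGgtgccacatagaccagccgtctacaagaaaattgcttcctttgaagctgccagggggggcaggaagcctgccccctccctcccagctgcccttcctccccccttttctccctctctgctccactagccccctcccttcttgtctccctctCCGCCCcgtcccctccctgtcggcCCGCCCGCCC
Tnc: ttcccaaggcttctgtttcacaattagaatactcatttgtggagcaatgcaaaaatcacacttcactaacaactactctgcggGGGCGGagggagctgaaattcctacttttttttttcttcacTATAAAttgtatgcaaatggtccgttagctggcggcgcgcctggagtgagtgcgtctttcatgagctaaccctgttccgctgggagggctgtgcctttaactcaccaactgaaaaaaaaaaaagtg
In the *Bgn* window the CT unit occurred 1 time, on the other strand, and the GC box 3 times. C and T together made up 61.2% of its bases, more than in 95.7% of 32851 promoters, counted in the same window. By the same measure *Fbln1* stood above 86.4% of promoters, *Tnc* above 57.6%, *Postn* above 49.7%, *Vcan* above 16.1% and *Fbn1* above 8.86%. This share was counted on the strand of the gene alone, unlike the motif matches. A low share, such as 41.6% for *Fbn1*, means that the other strand held more C and T. The *Tnc* window held 1 TATA box and 1 GC box and no CT unit, with 51.2% C and T. Among the others, the CT unit was found in *Fbn1* alone, the TATA box in *Postn*, the GC box in *Fbn1* and *Vcan*, and none of these letters in *Fbln1*. The RefSeq start used for *Fbn1* lies 1555 bases inside the GENCODE gene, so that its window is not upstream of the GENCODE start, whereas the other starts differed by at most 3 bases. The CT unit stood in 9.69% of all promoters, the TATA box in 12.4% and the GC box in 32.7%. These are matches of letters, and binding was not examined here.

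On GRCm38, with the gene models of GENCODE vM21, the glycoprotein genes lie at chr1:71585520-71653200 (*Fn1*, minus strand), chr2:125300594-125507993 (*Fbn1*, minus), chr18:58008623-58210487 (*Fbn2*, minus), chr15:85205949-85286535 (*Fbln1*, plus), chr4:63959785-64047015 (*Tnc*, minus) and chr3:54361109-54391037 (*Postn*, plus). *Vcan* lies at chr13:89655312-89742509 on the minus strand. *Dcn* and *Lum* are neighbors on the plus strand of chromosome 10, at chr10:97479609-97518143 and chr10:97565128-97572703. *Bgn* lies on the X chromosome, at chrX:73483602-73495933 on the plus strand. Exons of *Fbn1* share 2442 of their 12128 bases with *Gm9913*, a gene annotated as protein-coding on the opposite strand, so the *Fbn1* values are uncertain if the counting ignored strand. *Gm9913* itself had an FPKM of 0.464 to 0.930 over the 6 libraries. Smaller stretches of 292, 129 and 176 bases are shared with opposite-strand transcripts in *Fn1*, *Fbn2* and *Tnc*.

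The values were FPKM, fragments on a gene per unit of its length and of a library size. The length was that of all annotated exons merged, as far as the recovered reads show (5838 bases for *Dcn*, 2448 for *Lum*). Levels of different genes can be compared only as far as that length fits their transcripts. The library size that the values imply lay below the reads on listed genes in CKO replicate 2 (19146570 against 21190287). It also did so in CKO replicate 3 (23848048 against 24624434), but in none of the others. What set it was not given. CKO was compared with WT by limma on log2(FPKM + 0.1), with the Benjamini-Hochberg adjustment over all 12305 genes. The reads on listed genes numbered between 17140869 and 24624434 per library. Both libraries numbered 1 stood apart from the others. They lay on one side of the first principal component, which held 52.6% of the variance, whereas WT and CKO were separated on the second, with 26.0%. Globin transcripts, from red blood cells in the tissue, made up 11.7% to 32.4% of the summed FPKM. *Hnrnpk* had an FPKM of 193, 195 and 185 in the WT libraries and of 127, 142 and 135 in the CKO libraries. The groups did not overlap (log2 fold change -0.50 ± 0.13 SE, adjusted *p* = 0.334 by limma and 0.0575 with the number as a block), and the FPKM covers the whole gene rather than the deleted exons. *Prrx1*, a marker of limb mesenchyme, lay between 51.6 and 62.0 in all libraries.

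*Fn1* had the highest level of the 10 genes in both groups, with a mean FPKM of 68.5 ± 10.3 (SD, n = 3) in WT and 64.7 ± 16.2 in CKO. Next in WT were *Vcan* (45.5 ± 3.50) and *Fbln1* (43.8 ± 1.27), whose ranges overlapped, and then *Fbn2* (37.0 ± 3.27). *Lum* followed with 16.5 ± 11.8. *Bgn*, *Fbn1*, *Tnc*, *Postn* and *Dcn* had means under 5 in WT, and from *Lum* down each gene overlapped with the next over the libraries. In CKO, *Fbln1* overlapped with *Vcan* and *Vcan* with *Fbn2*, whereas *Bgn* (6.94 ± 0.991) lay above *Fbn1* (3.54 ± 0.208) and *Tnc* (2.12 ± 0.461) above *Dcn* (0.539 ± 0.293) without overlap. The summed FPKM of the 10 genes was 217, 220 and 245 in WT and 238, 206 and 201 in CKO, of which *Fn1* made up between 25.8% and 36.6%. The genes of fibronectin, versican, fibulin-1 and fibrillin-2 had the 4 highest means in both genotypes.

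**Figure D1:**
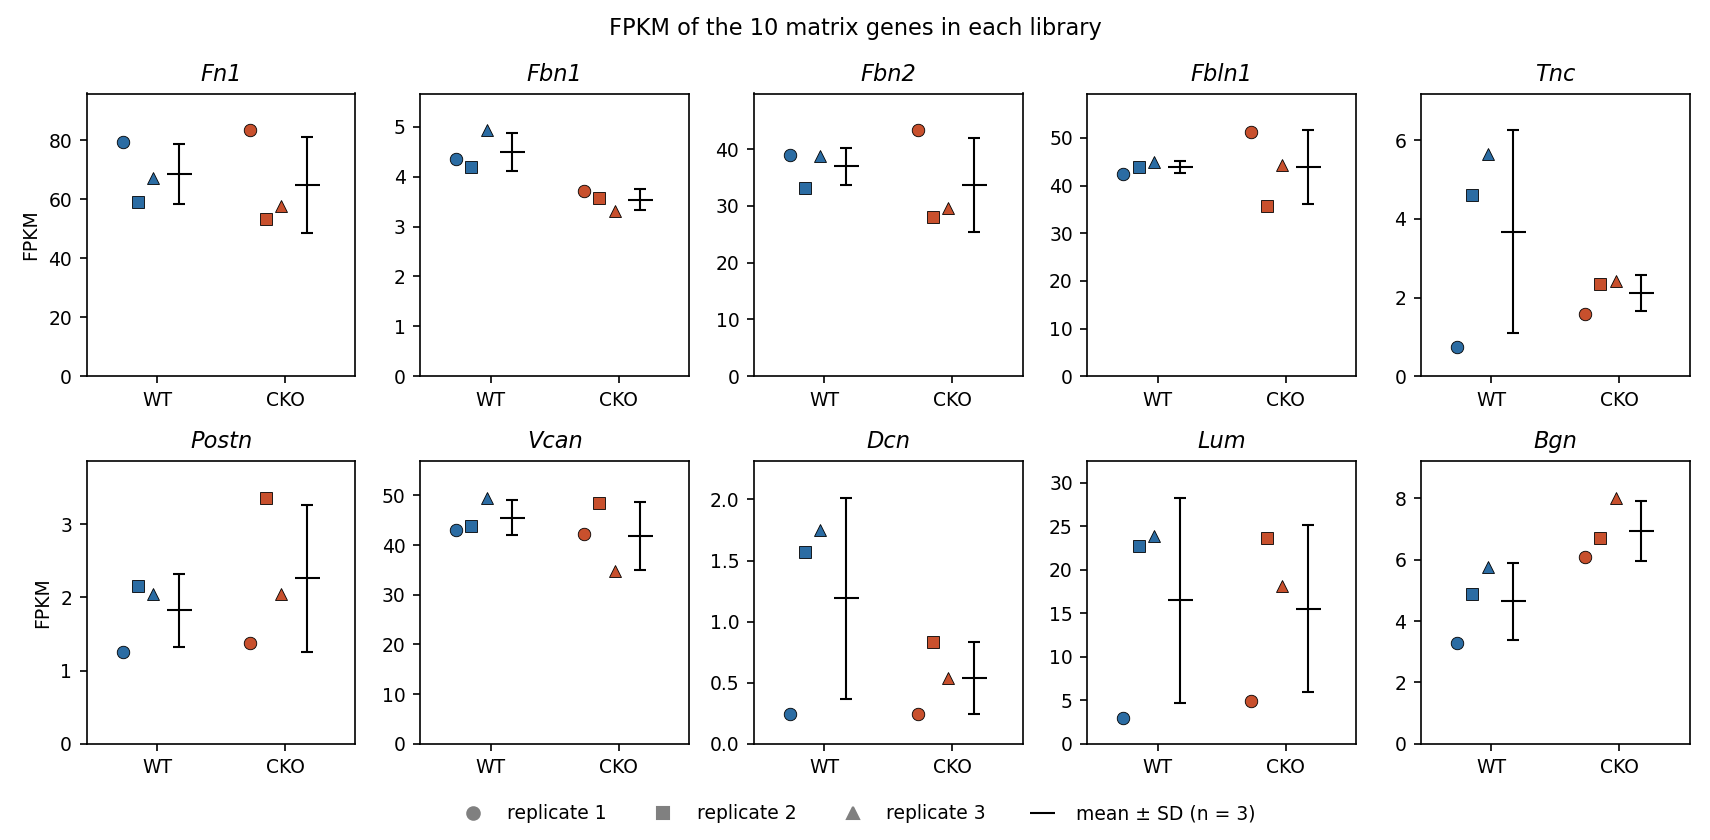
FPKM (y axis, linear, from 0) of each of the 10 genes in the 3 WT (blue) and 3 CKO (orange) libraries, with the marker shape giving the replicate number and the bars the mean ± SD (n = 3). All CKO points of *Bgn* lie above its WT points and all those of *Fbn1* below, and *Tnc*, *Dcn* and *Lum* were lowest in the libraries numbered 1 of each group.

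None of the 10 genes had an adjusted *p* value under 0.05 in the comparison of CKO with WT, where 8 of all tested genes (0.0650%) did. At an unadjusted *p* value under 0.05 there were 2, *Bgn* and *Fbn1*, against 8.31% of all genes. There were 0 without CKO replicate 2 and without CKO replicate 3, where 712 and 576 of all 12305 genes passed. In the same 2 genes the values of the groups did not overlap, against 14.5% of all genes. *Bgn* was on the higher side, as 5.63% of all genes were, and *Fbn1* on the lower side, as 8.86% were. The study's thresholds ask for a change of over 2 times in either direction at an unadjusted *p* value under 0.05. With the limma *p* values used here, no member passed them, against 82 of all genes (0.666%). The study itself reported more genes at these thresholds. Of the 10 genes, 3 had a log2 fold change above 0 and 7 below, with a median of -0.12, against 0.0048 over all genes. The results below follow the genes by their role in the matrix.

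Among the small leucine-rich proteoglycans, *Bgn* was the gene that was higher in CKO limb buds. Its FPKM was 3.28, 4.88 and 5.77 in WT libraries 1, 2 and 3 and 6.08, 6.72 and 8.02 in the CKO libraries of the same numbers. The lowest CKO value lay above the highest WT value, and the CKO mean was 1.49 times the WT mean (6.94 ± 0.991 against 4.64 ± 1.26). The log2 fold change was 0.60 (± 0.22 SE, 95% interval 0.09 to 1.10, adjusted *p* = 0.545 by limma). With the replicate number as a block the standard error fell to 0.12 and *Bgn* passed the threshold (adjusted *p* = 0.0259 by limma), the one member to do so, against 2.81% of all genes, and 1.13% in this direction. Within the numbers 1, 2 and 3, CKO was higher by 0.87, 0.45 and 0.47, and 18.2% of all genes were higher within all 3 numbers. Without both libraries numbered 1 the log2 fold change was 0.46 (± 0.14 SE, adjusted *p* = 0.0195 by limma). With 1 library left out at a time it lay between 0.37 (without WT replicate 1) and 0.77 (without WT replicate 3). *Bgn* is on the X chromosome, and transcripts of 4 Y-linked genes were present in every library, with a summed FPKM of 17.1, 21.0 and 27.0 in WT and 33.2, 13.0 and 8.57 in CKO, whose part in the *Bgn* difference was not tested.

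*Dcn*, the closest relative of *Bgn* among these genes, was at the bottom of the order. It had an FPKM of 0.247, 1.57 and 1.75 in WT libraries 1, 2 and 3 and of 0.246, 0.832 and 0.539 in CKO. The values rested on 26, 220 and 223 reads in WT and on 26, 93 and 75 in CKO. Replicates 1 were alike between the groups, and both of the other CKO values lay below both of the other WT values. Over all libraries the log2 fold change was -0.79 (± 0.66 SE, 95% interval -2.34 to 0.75, adjusted *p* = 0.83 by limma and 0.162 in the blocked model). Without the libraries numbered 1, *Dcn* passed the threshold with a log2 fold change of -1.19 (± 0.22 SE, adjusted *p* = 2.16e-04 by limma). That comparison has 2 libraries per group, and 8.00% of all genes passed it in the same direction. On reads recovered from the FPKM, the model with the replicate block gave -1.11 (adjusted *p* = 0.00973 by limma voom).

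*Lum* lies next to *Dcn* on chromosome 10 and had a higher level. Its FPKM was 2.90, 22.7 and 23.9 in WT and 4.92, 23.6 and 18.1 in CKO. The libraries numbered 1 were low in both groups, with differences from the mean of the others of -2.96 in WT and -2.05 in CKO on the log2 scale, and the groups overlapped throughout. The log2 fold change was 0.13 (± 0.87 SE, 95% interval -1.90 to 2.17, adjusted *p* = 0.979 by limma). Its sign was not stable, since leaving out WT replicate 1 gave -0.85 and leaving out CKO replicate 1 gave 0.82. With the replicate block the standard error was 0.17.

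*Vcan*, the hyaluronan-binding proteoglycan, had an FPKM of 43.1, 43.8 and 49.5 in WT and 42.2, 48.4 and 34.7 in CKO. CKO replicate 3 was the lowest library and the groups overlapped (log2 fold change -0.13, 95% interval -0.48 to 0.22, adjusted *p* = 0.867 by limma). Within the numbers 1, 2 and 3 the differences were -0.03, 0.14 and -0.51.

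Among the fibril and microfibril glycoproteins, *Fbn1* was the gene that was lower in every CKO library. Its FPKM was 4.35, 4.20 and 4.93 in WT, numbered in the same order, and 3.72, 3.58 and 3.31 in CKO. The means were 4.50 ± 0.388 and 3.54 ± 0.208, a log2 fold change of -0.34 (± 0.13 SE, 95% interval -0.63 to -0.04, adjusted *p* = 0.552 by limma and 0.186 in the blocked model). Within the numbers, CKO differed from WT by -0.22, -0.22 and -0.56. Under the alternatives tried, the log2 fold change of *Fbn1* lay between -0.44 and -0.27 and its adjusted *p* value between 0.0585 and 1.0, so it passed in none of them. An exact permutation test gave *p* = 0.1 for *Bgn* and for *Fbn1*, the smallest value that 3 libraries against 3 allow.

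*Fbn2*, the fibrillin of embryonic tissue, was more abundant than *Fbn1* in every library. It had 39.0, 33.2 and 38.7 in WT and 43.3, 28.1 and 29.6 in CKO. CKO replicate 1 was the highest library and the other CKO libraries the lowest (log2 fold change -0.16, 95% interval -0.58 to 0.26, adjusted *p* = 0.868 by limma). *Fn1* had a similar pattern, with 79.4, 59.0 and 67.2 in WT and 83.3, 53.1 and 57.8 in CKO (log2 fold change -0.10, 95% interval -0.56 to 0.37, adjusted *p* = 0.927 by limma). For *Fbln1* the values were 42.5, 43.9 and 45.0 in WT, within a narrow range, and 51.3, 35.8 and 44.4 in CKO, on both sides of that range. Its log2 fold change was -0.02 (95% interval -0.36 to 0.33, adjusted *p* = 0.987 by limma).

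The matricellular genes spread more between libraries. *Tnc* had an FPKM of 0.749, 4.60 and 5.66 in WT libraries 1, 2 and 3 and of 1.59, 2.35 and 2.42 in CKO. WT replicate 1 was the lowest of all libraries, whereas WT replicates 2 and 3 were the highest, and the CKO values lay between them. The reads behind them numbered 105, 856 and 959 in WT and 223, 349 and 448 in CKO. Over all libraries the log2 fold change was -0.38 (± 0.66 SE, 95% interval -1.91 to 1.14, adjusted *p* = 0.915 by limma and 0.534 in the blocked model). Within the numbers, CKO was higher by 0.99 in number 1 and differed by -0.94 and -1.19 in numbers 2 and 3. Without the libraries numbered 1, *Tnc* passed the threshold with a log2 fold change of -1.07 (± 0.15 SE, adjusted *p* = 3.54e-06 by limma). This rests on 2 libraries per group, and 8.00% of all genes passed as lower there. Without WT replicate 1 alone, *Tnc* had -1.25 and did not pass (adjusted *p* = 0.149 by limma). *Postn* had 1.25, 2.16 and 2.05 in WT and 1.38, 3.36 and 2.04 in CKO. CKO replicate 2 was its highest library, and the other values of the same number were close between the groups (log2 fold change 0.25, 95% interval -0.53 to 1.02, adjusted *p* = 0.89 by limma).

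**Figure D2:**
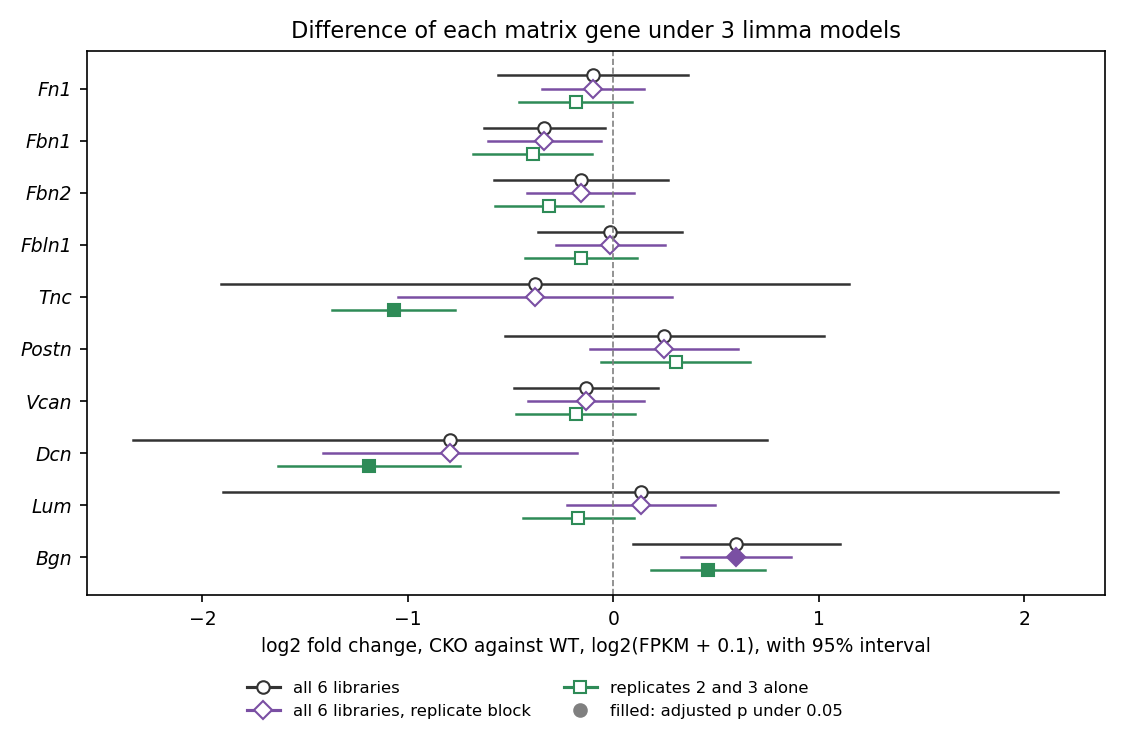
Log2 fold change of CKO against WT (x axis, on log2(FPKM + 0.1)) for each of the 10 genes in limma with all 6 libraries, with the replicate number as a block, and with replicates 2 and 3 alone. Lines are 95% intervals and filled symbols have an adjusted *p* value under 0.05, which holds for *Bgn* in both of the latter and for *Tnc* and *Dcn* with replicates 2 and 3 alone.

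Leaving out both libraries numbered 1 thus gave 3 members past the threshold, *Bgn* higher and *Dcn* and *Tnc* lower, against 15.0% of all genes. The median of the 10 genes was -0.18 in that comparison. By replicate number, the median difference between CKO and WT was 0.14, -0.19 and -0.39 for numbers 1, 2 and 3. In 4 genes (*Fn1*, *Fbn2*, *Fbln1* and *Tnc*) the CKO library was higher within number 1 and lower within both other numbers. A sign in number 1 opposite to both others was seen in 30.7% of all genes. *Fbn1* and *Dcn* were lower within all 3 numbers, *Dcn* by less than 0.01 in number 1, against 21.3% of all genes.

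**Figure D3:**
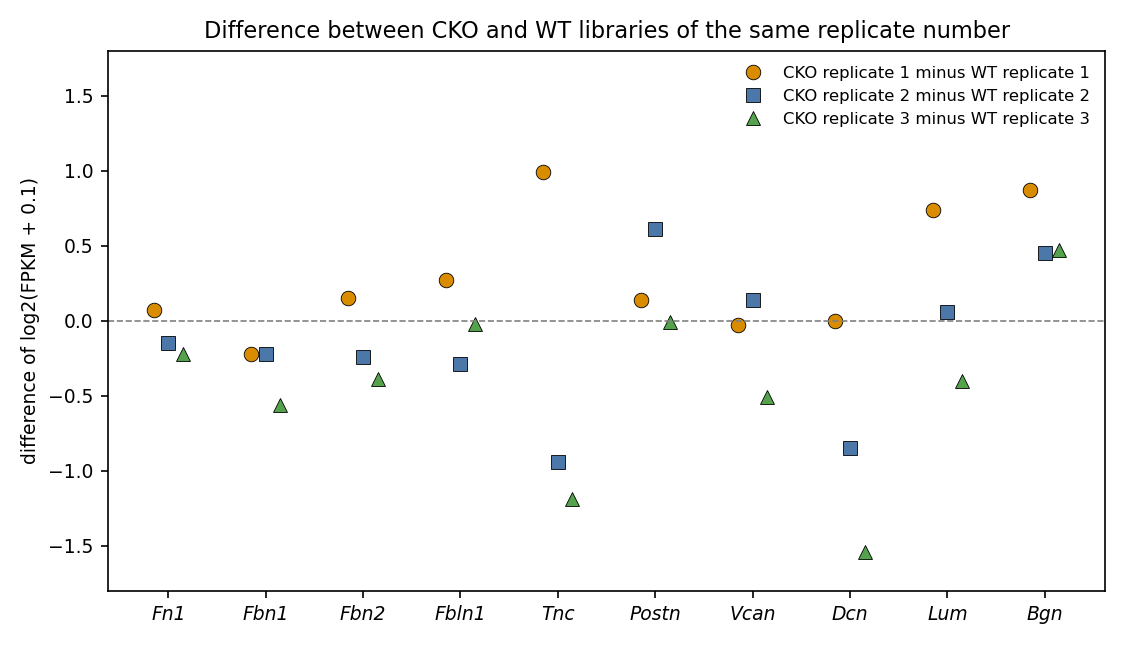
Difference of log2(FPKM + 0.1) between the CKO and the WT library of the same replicate number (y axis) for each of the 10 genes, with 1 point per number. *Bgn* was above 0 in all 3 numbers and *Fbn1* below 0, whereas *Tnc* was at 0.99 in number 1 and at -0.94 and -1.19 in numbers 2 and 3.

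The difference between the libraries numbered 1 and the other 4 was larger for *Lum*, *Dcn* and *Tnc* than the log2 fold change of any member between the genotypes. On the log2 scale, *Lum* differed by -2.50 in the libraries numbered 1 (mean of both against mean of the other 4), at rank 4 from the lowest of 12305 genes. For *Dcn* the difference was -1.75, at rank 37 from the lowest, and for *Tnc* it was -1.59, at rank 55. By group, *Dcn* differed by -2.34 in WT and -1.16 in CKO, and *Tnc* by -2.61 in WT and -0.56 in CKO. *Postn* had -0.79 and *Bgn* -0.47. In the other direction, *Fn1* was higher by 0.46 and *Fbn2* by 0.35 in the libraries numbered 1, while *Fbn1* (0.02) and *Vcan* (-0.03) differed little. What the number stands for was not given.

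Markers of other cell types also differed between these libraries. The summed FPKM of 6 connective tissue and tendon markers was 41.8, 85.6 and 70.6 in WT libraries 1, 2 and 3 and 46.9, 52.7 and 53.0 in CKO. Of 5 tested, 4 were below 0 in log2 fold change and 1 above. The tendon factor *Scx* had 14.5, 43.9 and 32.6 in WT and 13.7, 21.0 and 21.4 in CKO. For 6 chondrogenic markers the sum was 92.4, 146 and 145 in WT and 102, 87.6 and 96.2 in CKO, and 5 of 5 tested were below 0 in log2 fold change. Both sums were low in WT replicate 1 and high in WT replicates 2 and 3, as *Tnc* was. The aggrecan gene *Acan*, a defining cartilage marker, was near 0 in all libraries (0.067 to 0.589). The sum of 6 limb mesenchyme markers ranged from 272 to 299 in WT and from 245 to 268 in CKO, with 5 of 6 below 0. Their part in the differences of *Tnc* and *Dcn* was not tested, and in RNA of whole limb buds fewer cells of a type and less RNA per cell cannot be told apart.

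Among the remaining marker lists, 9 of 9 erythroid markers had a log2 fold change above 0, with sums from 37200 to 62800 in WT and from 30100 to 140000 in CKO. Endothelial markers summed to 30.3, 21.0 and 23.8 in WT libraries 1, 2 and 3 and to 15.0, 24.1 and 21.5 in CKO. Of these markers 6 of 6 were below 0, although the sum was higher in CKO in number 2. Mural markers summed to 23.3 to 30.7 and 17.2 to 27.6, nearly all of it *Notch3* (22.6 to 29.2 in WT and 16.2 to 26.9 in CKO). *Notch3* was the 1 of 5 mural markers tested and lay below 0, and *Kcnj8* and *Higd1b* were at 0 in at least 1 library. Macrophage markers summed to 16.2 to 24 and 18.6 to 30.2, muscle precursor markers to 13.9 to 29.0 and 25.1 to 32.2, ectoderm and ridge markers to 40.4 to 55.7 and 39.6 to 57.6, and neural and Schwann precursor markers to 7.04 to 12.5 and 9.01 to 11.1. Above 0 were 5 of 6 tested macrophage, 5 of 5 muscle precursor, 6 of 7 ectoderm and ridge and 3 of 4 neural and Schwann precursor markers. None of these markers passed an adjusted *p* value of 0.05, with or without the replicate block.

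Members were compared for their pattern over the 6 libraries, so that depth, tissue and the differences between replicate numbers enter every point. By Pearson's correlation of log2(FPKM + 0.1), *Fn1* and *Fbn2* were most like each other (r = 0.943), as were *Tnc* and *Dcn* (r = 0.934). *Lum* was most like *Tnc* (0.882), *Postn* like *Lum* (0.864), *Fbln1* like *Fbn2* (0.754), *Fbn1* and *Vcan* like each other (0.648) and *Bgn* like *Lum* (0.619). The 10 genes thus fell mainly into those that were high and those that were low in the libraries numbered 1, with *Fn1* and *Postn* as the pair least alike (r = -0.92).

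Ratios between related members were also taken within each library, as ratios of FPKM + 0.1, so the added constant narrows ratios that involve a gene of low FPKM. The log2 ratio of *Dcn* to *Bgn* was -3.29, -1.57 and -1.67 in WT and -4.16, -2.87 and -3.67 in CKO. Within the numbers 1, 2 and 3, CKO differed from WT by -0.87, -1.30 and -2.0, although the groups overlapped through WT replicate 1. The means differed by -1.39 (two-sided exact permutation *p* = 0.2, adjusted over 3 ratios 0.6). *Fbn1* to *Fbn2* differed by -0.18 (exact permutation *p* = 0.7) and *Tnc* to *Postn* by -0.63 (exact permutation *p* = 0.5), both with an adjusted value of 0.7.

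Of 187 other genes of the extracellular matrix, grouped into 6 lists by function, 139 were tested. None had an adjusted *p* value under 0.05, while at an unadjusted *p* value under 0.05 there were 1 higher and 16 lower genes, against 2.84% and 5.46% of all genes. A log2 fold change below 0 was found for 106 of them (76.3%), against 49.1% of all genes, and their median was -0.16. With the replicate block 4 genes passed, all of them lower in CKO, against 1.68% of all genes in that direction. The groups did not overlap in 17.3% of the 139 genes, against 14.5% of all genes. By list this share ran from 6.67% (basement membrane) to 25.0% (matrix proteases and inhibitors). Of the genes without overlap, 20 were lower and 4 higher in CKO, where 8.86% of all genes were lower and 5.63% higher without overlap. The median difference was 0.01, -0.19 and -0.19 within the numbers 1, 2 and 3, against -0.014, 0.0014 and 0.0014 over all genes. The globin share of the summed FPKM was 13.7%, 19.5% and 20.6% in WT and 11.7%, 32.4% and 23.5% in CKO, lower in CKO in number 1 and higher in numbers 2 and 3. Log2 fold changes were also below 0 for 5 of 6 mesenchyme and 5 of 5 tested chondrogenic markers. The part of either in the shift of the matrix genes was not tested. Without both libraries numbered 1, 3 genes passed as higher and 30 as lower, against 7.05% and 8.00% of all genes.

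Other matrix glycoproteins had the lowest median of the 6 lists. Of 34 tested, 31 had a log2 fold change below 0, with a median of -0.23, and 2 passed with the replicate block. *Eln*, the elastin gene, had an FPKM of 1.01, 2.02 and 1.85 in WT and 0.587, 0.722 and 0.782 in CKO, without overlap (log2 fold change -1.07, adjusted *p* = 0.345 by limma and 0.0168 in the blocked model). *Mfap4*, for a microfibril-associated glycoprotein that binds elastin and fibrillin, had 64.3, 88.0 and 76.0 in WT and 44.7, 47.3 and 46.1 in CKO (log2 fold change -0.71, adjusted *p* = 0.218 by limma and 0.00709 in the blocked model). Both genes were lower within all 3 numbers, with differences of -0.69, -1.36 and -1.15 for *Eln* and of -0.52, -0.89 and -0.72 for *Mfap4*. *Frem2*, a basement membrane protein of the Fraser complex, was the one gene of this list above its WT range in all CKO libraries (log2 fold change 0.25, adjusted *p* = 0.701 by limma).

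Proteases of the matrix and their inhibitors held the other 2 genes that passed with the block. *Mmp11*, the gene of stromelysin-3, had 11.0, 18.2 and 17.8 in WT and 8.41, 8.61 and 8.98 in CKO (log2 fold change -0.81, adjusted *p* = 0.311 by limma and 0.00783 in the blocked model). *Mmp15*, a membrane-type matrix metalloproteinase, had 5.84, 4.75 and 5.39 in WT and 4.36, 3.13 and 3.85 in CKO (log2 fold change -0.49, adjusted *p* = 0.468 by limma and 0.0453 in the blocked model). Of the 24 tested genes of this list 16 were below 0, with a median of -0.13. *Pcolce* and *Pcolce2*, enhancers of procollagen C-proteinase, lay above the WT range in all CKO libraries, with log2 fold changes of 0.21 and 0.23, and neither passed.

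In the other 4 lists no gene passed with the block. Other proteoglycans had 14 of 19 tested genes below 0 (median -0.16). *Gpc1*, a cell-surface glypican, had a log2 fold change of -0.32 and the testican gene *Spock2* of -0.42, both without overlap between the groups. Hyaluronan and glycosaminoglycan synthesis genes had 23 of 30 below 0 (median -0.15), with *Chst3*, a chondroitin sulfotransferase, at -0.55 and *B3gat3*, which completes the linkage region of glycosaminoglycans, at -0.33. Basement membrane genes had 11 of 15 below 0 (median -0.13), with the laminin gene *Lama4* at -0.27. Among 17 matrix receptors, 11 were below 0 (median -0.09). *Itga4*, a subunit of the fibronectin receptor α4β1, was above the WT range in all CKO libraries, with 2.62, 2.42 and 2.79 in WT and 4.17, 3.80 and 3.04 in CKO (log2 fold change 0.47, adjusted *p* = 0.483 by limma). *Itgb3* and *Itgb5*, β subunits of integrins that bind vitronectin and fibronectin, were below it, with log2 fold changes of -0.37 and -0.32.

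**Figure D4:**
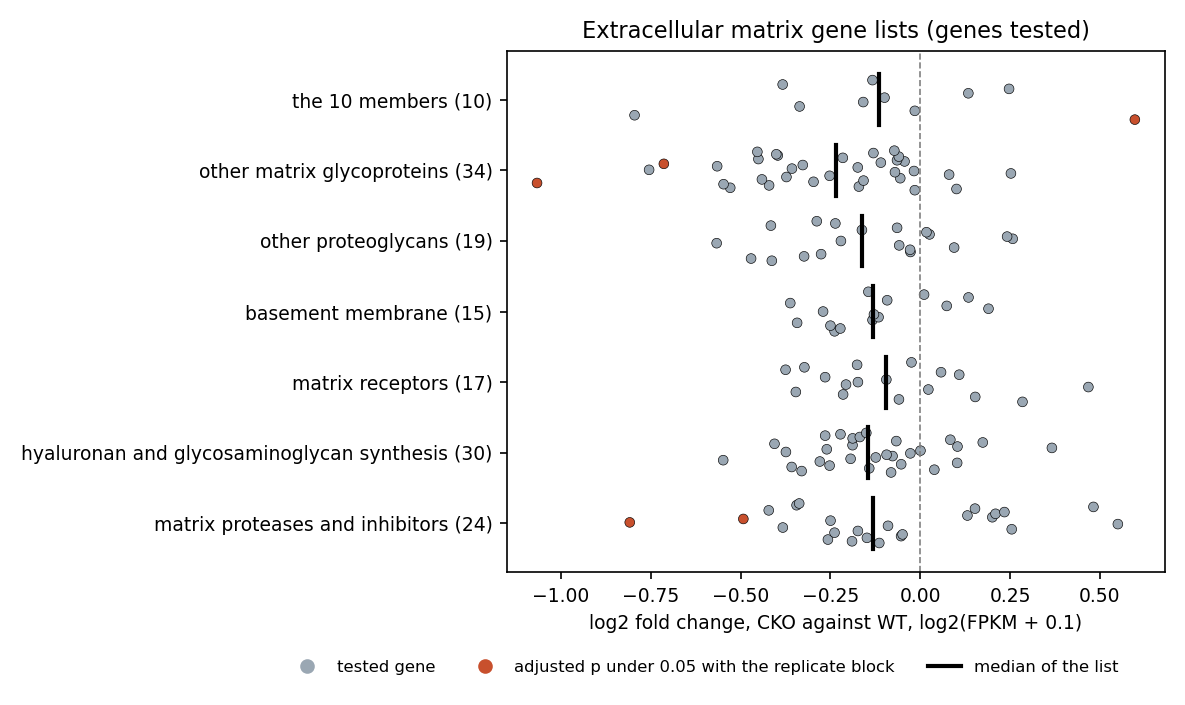
Log2 fold change of CKO against WT (x axis, on log2(FPKM + 0.1)) of the 10 genes and of the tested genes of the 6 other matrix lists, with 1 point per gene and the number tested in parentheses. Black bars are medians, which lay between -0.23 and -0.09, and orange points had an adjusted *p* value under 0.05 with the replicate block (*Bgn*, *Eln*, *Mfap4*, *Mmp11* and *Mmp15*).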

How the data were processed

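RNA was extracted from limb bud cells of E11.5 embryos, and the authors used a stranded mRNA library kit. They deposited 1 table of FPKM with a column for each of the 6 libraries. Per the submitters' processing notes, which give no role or order, cutadapt 2.5, HISAT2 2.1.0, featureCounts 1.6.3, Bowtie2 2.11.1, MACS2 2.1.2 and the mm10 build were used in the series. Whether RNA-seq counting used the strand, and how the FPKM were scaled, was not given in the sources used here. With the merged exon lengths of GENCODE vM21, which held 99.51% of the identifiers, 92.63% of matched genes gave whole reads in all libraries (tolerance 0.1 reads), from which reads per gene were recovered.

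The 12305 genes whose FPKM averaged 0.5 or more were tested on log2(FPKM + 0.1) by limma 3.58.1 in R 4.3.3 (lmFit, then eBayes with trend), a scale that understates the change of low genes. The *p* values were adjusted by the Benjamini-Hochberg method over all genes tested. The code was tested on simulated data. Exact permutation tests used scipy 1.17.1 in Python 3.11.15.

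The labels of WT and CKO share replicate numbers. Over all tested genes, the deviations from the group means correlated by 0.636, 0.443 and 0.266 between libraries of the same number, each over 0.1. The number was fitted as a block in an alternative, while the main comparison had no block. WT replicate 2 correlated by 0.495 with CKO replicate 3, and WT replicate 3 by 0.307 with CKO replicate 2. In number 1 alone did both libraries correlate best with each other. Deviations within a group cancel out, so libraries numbered 1 that stand apart can raise the correlations among numbers 2 and 3. These values therefore do not show that numbers 2 and 3 are pairs. The block is reported where it changed a call.

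The members and lists were chosen with earlier results of these data known, and the promoter motifs and the Y-linked genes after values were seen. Named were the 10 members, *Hnrnpk*, list genes past the adjusted threshold with or without the block, and up to 2 rises and 2 falls per list with the largest log2 fold change among genes without overlap. Cell type markers are named beside a result. The alternatives used a pseudocount of 0.5 or of 1, all genes above 0 or a minimum mean of 1, median-ratio scaling, quantile normalization, a common sum without 8 globin genes, eBayes without the trend, the block, each library left out, both libraries numbered 1 left out, and limma voom on recovered reads with and without the block. The chromatin samples of the series were not analysed here.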

Additional observations from a re-analysis of the deposited data

How the results depend on the processing

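Of all genes, 8 passed the adjusted threshold, against 14 with quantile normalization, 4 with the common sum without globins, 346 with the replicate block, 651 with voom and the block, 1851 without both libraries numbered 1, and 1 to 23 with 1 library left out (3 without WT replicate 2, 1 without WT replicate 3 or without either of CKO replicates 2 and 3, and 23 without CKO replicate 1). Of the 10 members 0 passed, against 1 with the block (*Bgn*), 2 with voom and the block (*Bgn* and *Dcn*), 3 without both libraries numbered 1 and 0 with any single library left out. At an unadjusted *p* value the 2 members became 3 with the block, 5 without both libraries numbered 1, and 0 without CKO replicate 2 or CKO replicate 3. Among all 12305 genes the count went from 1022 to 2263 with the block and 3569 without both libraries numbered 1. It was 712 without CKO replicate 2 and 576 without CKO replicate 3. Of the other matrix genes 0 passed, against 4 with the replicate block, 12 with voom and the block, and 33 without both libraries numbered 1. The block changed no other call among the members.

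With 1 library left out at a time, *Dcn* ran from -1.58 (without WT replicate 1) to -0.37 (without WT replicate 3), *Fbn2* from -0.35 to -0.04, *Vcan* from -0.25 to -0.01, *Tnc* from -1.25 to 0.13, *Lum* from -0.85 to 0.82, *Postn* from -0.07 to 0.54 and *Fbln1* from -0.14 to 0.12. The direction reversed for *Fn1* without WT replicate 1 (0.01) or CKO replicate 2 (0.03), for *Tnc* without WT replicate 3 (0.13), for *Postn* without CKO replicate 2 (-0.07) and for *Fbln1* without WT replicate 3 (0.00) or CKO replicate 2 (0.12). *Lum* became -0.85 without WT replicate 1, -0.30 without CKO replicate 2, -0.11 without CKO replicate 3, -0.17 without both libraries numbered 1 and -0.02 with voom and the block. The cause was not tested. The median of the members stayed below 0, from -0.22 to -0.03, and the 3 ratios kept their direction in all 10 alternatives run for each. Their size moved with 1 library left out, from -1.26 (without WT replicate 1) to -0.22 (without WT replicate 3) for *Tnc* to *Postn*, from -0.30 (without CKO replicate 2) to -0.02 (without CKO replicate 1) for *Fbn1* to *Fbn2*, and from -1.95 to -1.09 for *Dcn* to *Bgn*, which was -0.95 with a pseudocount of 1. Scaling to a common sum without globins moved the median of all genes to -0.0998, from 0.0048. With 26 reads in each library numbered 1, the low number of reads limits *Dcn*, and a mean FPKM of at least 1 left it untested.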
